A study of Macaca fascicularis with 16 samples.

Results

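The genes described are 9 members of the bone morphogenetic protein (BMP) pathway, namely the secreted antagonists GREM1, NOG and BMPER, the ligands BMP2, BMP4 and BMP5, and the receptors BMPR1A, BMPR1B and BMPR2. They were picked by symbol among 32822 rows with an NCBI GeneID, and they were picked with their levels across the aorta already known. RNA sequencing counts came from 16 libraries of aorta of normal young cynomolgus monkeys (Macaca fascicularis), labelled as baseline with no other treatment named. The vessel was divided into the infrarenal, suprarenal, descending and ascending aorta, and each region gave 4 libraries. The labels give no ages, and they do not say that the 4 libraries of a region are separate animals, so p-values measure only the spread between these libraries. All 9 genes passed the filter on low counts, as did 15921 genes in all.

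BMPs are secreted dimers that bind a pair of type I and a pair of type II receptor kinases on the cell surface. The active receptor phosphorylates SMAD1, SMAD5 and SMAD9, which join SMAD4 in the nucleus and switch on targets such as the ID genes. Antagonists in the matrix hold the ligands away from the receptors, and in blood vessels the pathway is best known for the BMPR2 mutations of heritable pulmonary arterial hypertension.

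Library totals ran from 14.4 to 21.41 in units of 1e6 counts, and levels are given as CPM, the count of a gene divided by its library's total and multiplied by 1e6, after scaling with TMM factors. A long transcript yields more counts than a short one, and transcript lengths were not used here, so levels are compared between libraries and not between genes. In bulk tissue, fewer cells of a type and less RNA per cell cannot be told apart. Smooth muscle markers were detected in every library, with MYH11 averaging 6870 CPM in infrarenal, 8930 in suprarenal, 10900 in descending and 10100 CPM in ascending libraries. TAGLN and ACTA2 were instead highest in the infrarenal region. In the same order TAGLN averaged 11300, 6000, 5010 and 5900 CPM, and ACTA2 9470, 5850, 5440 and 6100 CPM. Of the 8 smooth muscle markers, 0 were called in the infrarenal comparison. A set of 3 libraries stood apart within their own regions, since infrarenal replicate 1, suprarenal replicate 3 and ascending replicate 4 each had the lowest mean correlation of its region with the region's other libraries, 0.90, 0.928 and 0.945 across genes. Infrarenal replicate 3 was also at 0.945 and was kept, and the choice of the 3 was made after seeing these values. The TMM factor of infrarenal replicate 1 was 0.735 against 0.977 to 1.08 in the other libraries. Suprarenal replicate 3 and ascending replicate 4 had the lowest summed smooth muscle markers, 13500 and 17600 CPM, and infrarenal replicate 1 the highest, 57100 CPM. Sums of 6 white adipocyte, 6 macrophage and 5 mesothelial markers overlapped between all regions, at 80.8 to 2720, 80.9 to 244 and 15.4 to 942 CPM over the 16 libraries, and so did 6 cardiac muscle markers at 45.7 to 260 CPM. In the infrarenal comparison the lowest edgeR adjusted p among these lists and the smooth muscle list was 0.0734, that of the atrial myosin gene MYH6, which passed for any difference and in the abdominal comparison. Each member's infrarenal difference is given with and without the 3 libraries.

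GREM1 and BMPR1B were the members with the widest regional differences, and they ran in opposite directions along the vessel. GREM1 was highest in the infrarenal aorta and lowest in the ascending aorta, while BMPR1B was highest in the ascending aorta and lowest in the infrarenal aorta. All members except GREM1 had infrarenal libraries that overlapped those of the rest, BMPR1B through 2 of the 3 libraries that stood apart. Because the members were chosen from these same regional values, their levels and differences are a description and no test is given for them.

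GREM1 (GeneID 102122681) encodes gremlin, a secreted antagonist that binds BMP2 and BMP4. Its level was 22.8, 72.0, 41.0 and 21.5 CPM in the infrarenal libraries, in the order of replicates 1 to 4. It was 2.35, 4.74, 9.40 and 11.0 CPM in the suprarenal, 1.28, 0.361, 1.88 and 7.43 CPM in the descending and 0.564, 0.494, 1.88 and 2.96 CPM in the ascending libraries. Each infrarenal library lay above all 12 others, the nearest being suprarenal replicate 4. The means were 39.3 ± 23.5, 6.87 ± 4.01, 2.74 ± 3.19 and 1.47 ± 1.18 CPM (SD, n = 4 each) in the infrarenal, suprarenal, descending and ascending regions. With all 16 libraries the suprarenal, descending and ascending ranges overlapped, so the infrarenal region alone stood clear of its neighbour. Between the suprarenal and ascending regions the overlap came only from ascending replicate 4, at 2.96 CPM, above suprarenal replicate 1, at 2.35 CPM. The infrarenal mean was 5.73 times the suprarenal mean and 26.7 times the ascending mean. On the scale of mean log2(CPM + 0.5) the infrarenal region was 3.58 (SE 0.58) above the other 3, and 3.96 above them without the 3 libraries that stood apart. In those 13 libraries the infrarenal ones again lay above all the rest, as they did for 2.99% of tested genes.

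GREM1 was the 1 member of 9 whose infrarenal libraries all lay above the other 12, and none lay all below. It was also the 1 member to do so against the suprarenal region alone, as 0.867% of tested genes did, and against the ascending region alone, as 2.98% did. Over all tested genes, 0.471% had infrarenal libraries all above the rest and 0.904% all below, in a comparison that the choice of members had used. The sums of 8 fibroblast markers came to 6060 to 11900 CPM in infrarenal libraries against 5120 to 9990 in suprarenal, 6750 to 10600 in descending and 3280 to 5940 CPM in ascending libraries. The infrarenal and descending ranges of that sum overlapped, and 1 of the 8, COL1A1, was called higher in the infrarenal region (1.07, edgeR adjusted p = 0.0200). Endothelial markers summed to 1110 to 2910 CPM in the infrarenal region, above the 779 to 1070 CPM of the descending region and overlapping the suprarenal and ascending ranges, and 1 of 10, ESAM, was called higher (1.72, edgeR adjusted p = 0.0126). The 2 non-infrarenal libraries with the most endothelial markers, suprarenal replicate 3 and ascending replicate 4, had 9.40 and 2.96 CPM of GREM1. Their regions ran from 2.35 to 11.0 and from 0.494 to 2.96 CPM, so ascending replicate 4 was the highest of its region. The part of these cell types in the GREM1 level was not tested.

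**Figure D1:**
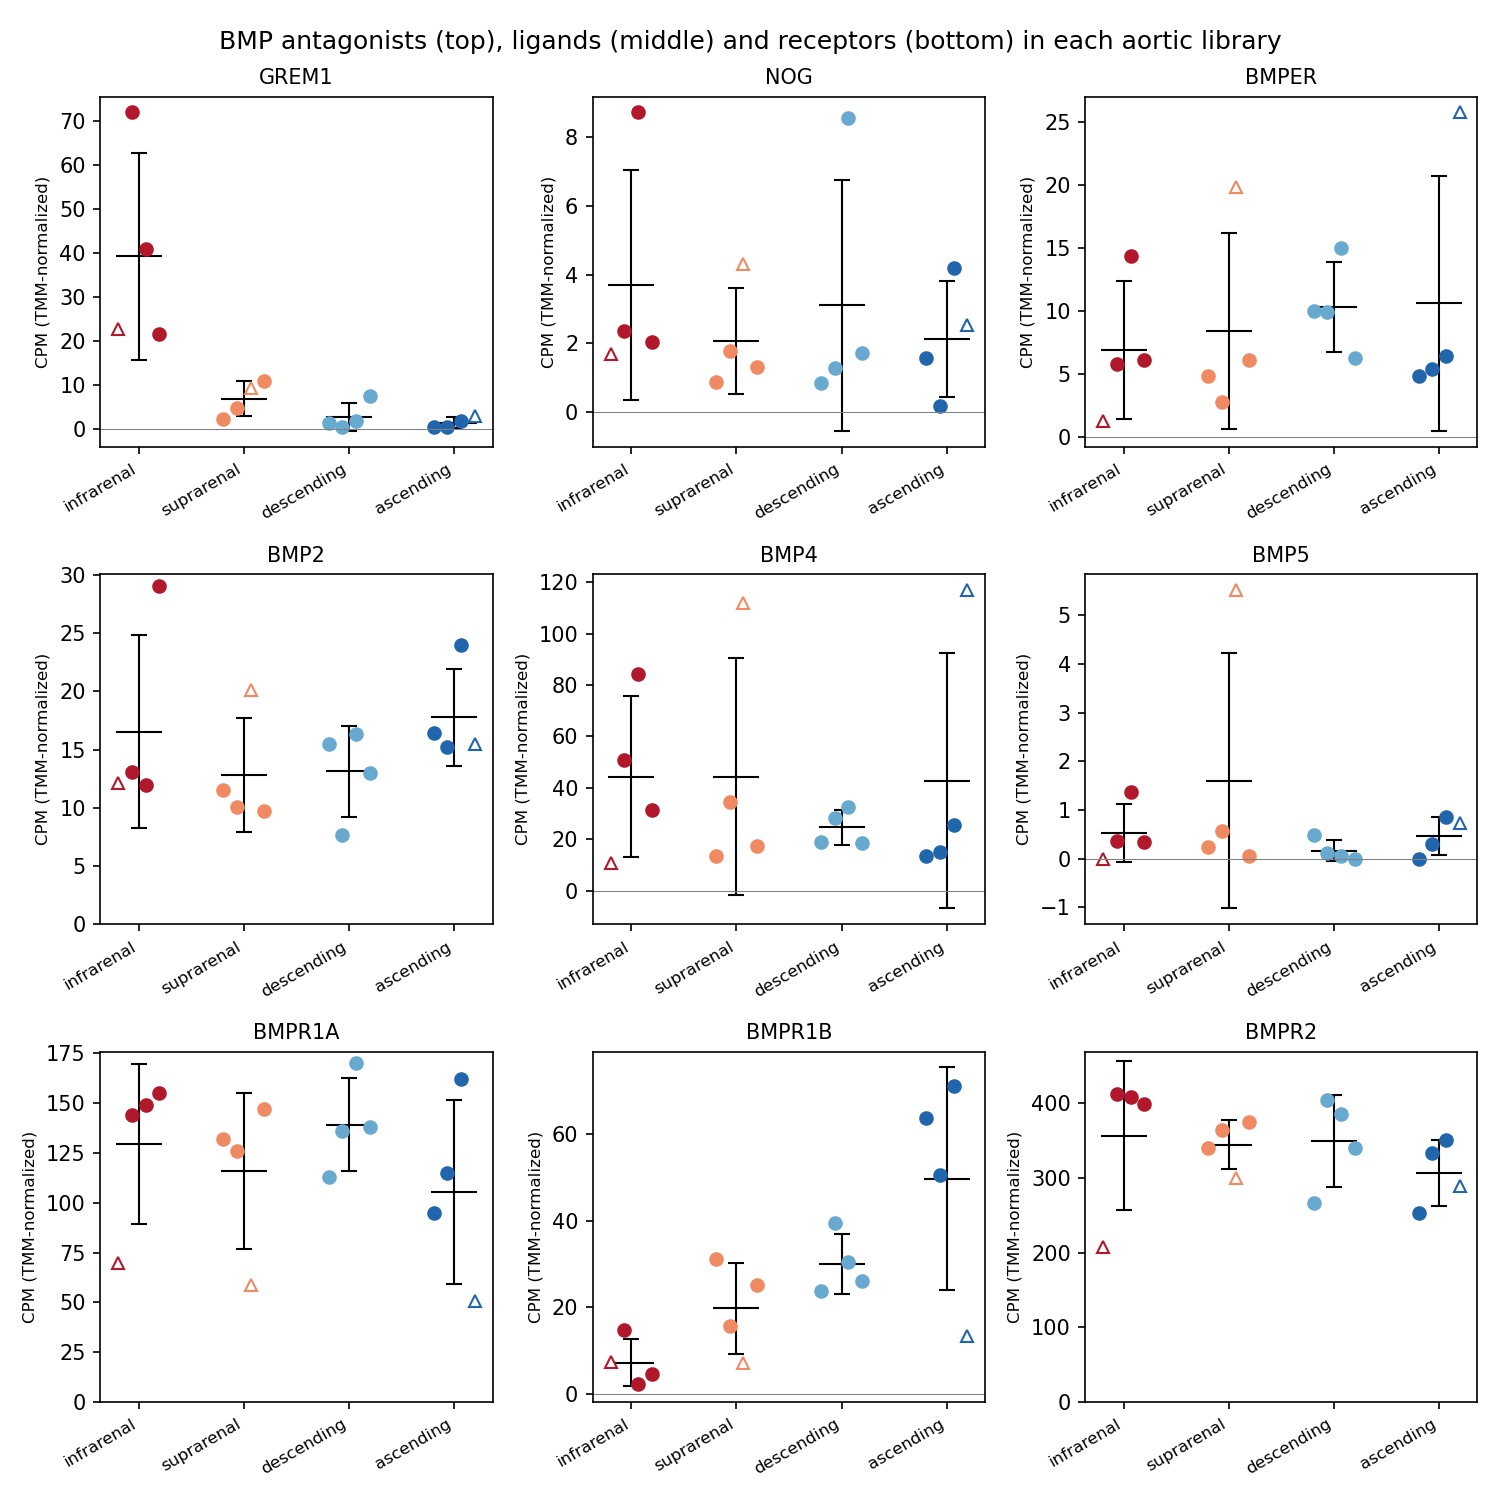
TMM-normalized CPM of the 9 BMP genes in each library (points), with the mean (line) and SD (bars) of each region of 4 libraries; open triangles are infrarenal replicate 1, suprarenal replicate 3 and ascending replicate 4. GREM1 lies between 21.5 and 72.0 CPM in the infrarenal region and at no more than 11.0 CPM elsewhere, and BMPR1B runs the other way.

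NOG (GeneID 102145726) encodes noggin, which binds BMP ligands and blocks both of their receptor-binding faces. It had 1.70, 2.35, 8.72 and 2.04 CPM in the infrarenal libraries and 0.867, 1.77, 4.32 and 1.30 CPM in the suprarenal libraries. The descending libraries had 0.856, 1.27, 8.56 and 1.72 CPM and the ascending libraries 1.57, 0.185, 4.18 and 2.54 CPM. Replicate 3 was the highest library in all 4 regions. The infrarenal mean of 3.70 ± 3.36 CPM (SD, n = 4) stood beside 2.06 ± 1.55 suprarenal, 3.10 ± 3.66 descending and 2.12 ± 1.68 CPM ascending. The log2 difference between the infrarenal region and the other 3 was 0.58 (SE 0.61), with ranges that overlapped for every pair of regions. Without the 3 libraries that stood apart the difference was 0.98. The remaining infrarenal libraries, at 2.07 to 8.81 CPM, then lay above the remaining suprarenal ones, at 0.883 to 1.79 CPM, as was the case for 7.90% of tested genes.

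BMPER (GeneID 102119951) encodes a BMP-binding endothelial regulator, a secreted protein that can restrain or promote BMP signalling. Its libraries read 1.24, 5.78, 14.4 and 6.11 CPM in the infrarenal and 4.83, 2.73, 19.9 and 6.14 CPM in the suprarenal region. They read 10, 9.94, 15 and 6.27 CPM in the descending and 4.83, 5.37, 6.42 and 25.8 CPM in the ascending region. The lowest and the highest library of the series were infrarenal replicate 1 and ascending replicate 4, both among the libraries that stood apart. The infrarenal difference was -0.58 (SE 0.60) with all libraries and 0.34 without those 3, so even its sign rested on them. All regional ranges of BMPER overlapped with all 16 libraries.

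Among the ligands, none separated the infrarenal region from the other 3. BMP2 (GeneID 102145501) is a ligand of heart and valve development and of vascular calcification. It had 12.1, 13.1, 12 and 29.0 CPM in the infrarenal, 11.5, 10.1, 20.1 and 9.69 CPM in the suprarenal, 15.5, 7.71, 16.3 and 13 CPM in the descending and 16.4, 15.2, 24.0 and 15.5 CPM in the ascending libraries. The ascending mean was the highest at 17.8 ± 4.18 CPM, followed by 16.5 ± 8.31 infrarenal, 13.1 ± 3.86 descending and 12.8 ± 4.89 CPM suprarenal (SD, n = 4 each), and each pair of regions overlapped. The infrarenal difference was 0.14 (SE 0.27), and 0.30 without the 3 libraries that stood apart. The suprarenal libraries then left, at 9.87 to 11.7 CPM, lay below the infrarenal ones at 12.1 to 29.4 CPM, a separation with the 7.90% background given for NOG. They also lay below the ascending ones at 15.4 to 24.4 CPM, as 7.54% of tested genes did.

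BMP4 (GeneID 102132568), a ligand that endothelial cells make in response to disturbed flow, varied more between libraries than between regions. It reached 10.9, 50.8, 84.3 and 31.3 CPM in the infrarenal libraries and 13.4, 34.5, 112 and 17.4 CPM in the suprarenal libraries. In the descending libraries it had 19.1, 28.4, 32.4 and 18.6 CPM, and in the ascending libraries 13.4, 15.2, 25.6 and 117 CPM. The means of 44.3 ± 31.2 infrarenal, 44.3 ± 46.0 suprarenal, 24.6 ± 6.86 descending and 42.7 ± 49.6 CPM ascending (SD, n = 4 each) did not differ beyond their spread. Without the 3 libraries that stood apart the infrarenal mean was 56.1 ± 27.0 CPM (n = 3) against 22.1 ± 11.3 suprarenal (n = 3), 24.9 ± 6.94 descending (n = 4) and 18.3 ± 6.72 CPM ascending (n = 3). The infrarenal difference was then 1.31, against 0.34 (SE 0.68) with all libraries. The libraries left out were the highest of the suprarenal and ascending regions, at 112 and 117 CPM, and the lowest infrarenal one, at 10.9 CPM. Infrarenal replicate 3, at 84.3 CPM, was kept, so the larger difference rests on which libraries were left out. The infrarenal libraries at 31.7 to 85.1 CPM then lay above the ascending ones at 13.5 to 26.0 CPM, as 15.7% of tested genes did, and overlapped the suprarenal and descending ones.

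The libraries highest in BMP4 were also high in endothelial markers. The 3 libraries with the most BMP4, ascending replicate 4, suprarenal replicate 3 and infrarenal replicate 3, were also the 3 with the highest sum of 10 endothelial markers, at 2070, 3500 and 2910 CPM. They were also the 3 with the lowest smooth muscle marker sums, at 17600, 13500 and 21900 CPM. The lowest BMP4 level, 10.9 CPM, was in infrarenal replicate 1, whose endothelial sum was 1110 CPM. All 10 of these markers were detected in every library, and the sum ran from 1110 to 2910 CPM in infrarenal, 591 to 3500 in suprarenal, 779 to 1070 in descending and 520 to 2070 CPM in ascending libraries. For BMPER, NOG and BMP5, 2 of the 3 highest libraries were among those 3, for GREM1, BMP2 and BMPR2 1 of the 3, and for BMPR1A and BMPR1B none. Ascending replicate 4 also carried 942 CPM of mesothelial markers against 18.6 to 82.5 CPM in the other ascending libraries. The part of these cell types in the BMP4 and BMPER levels was not tested.

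**Figure D2:**
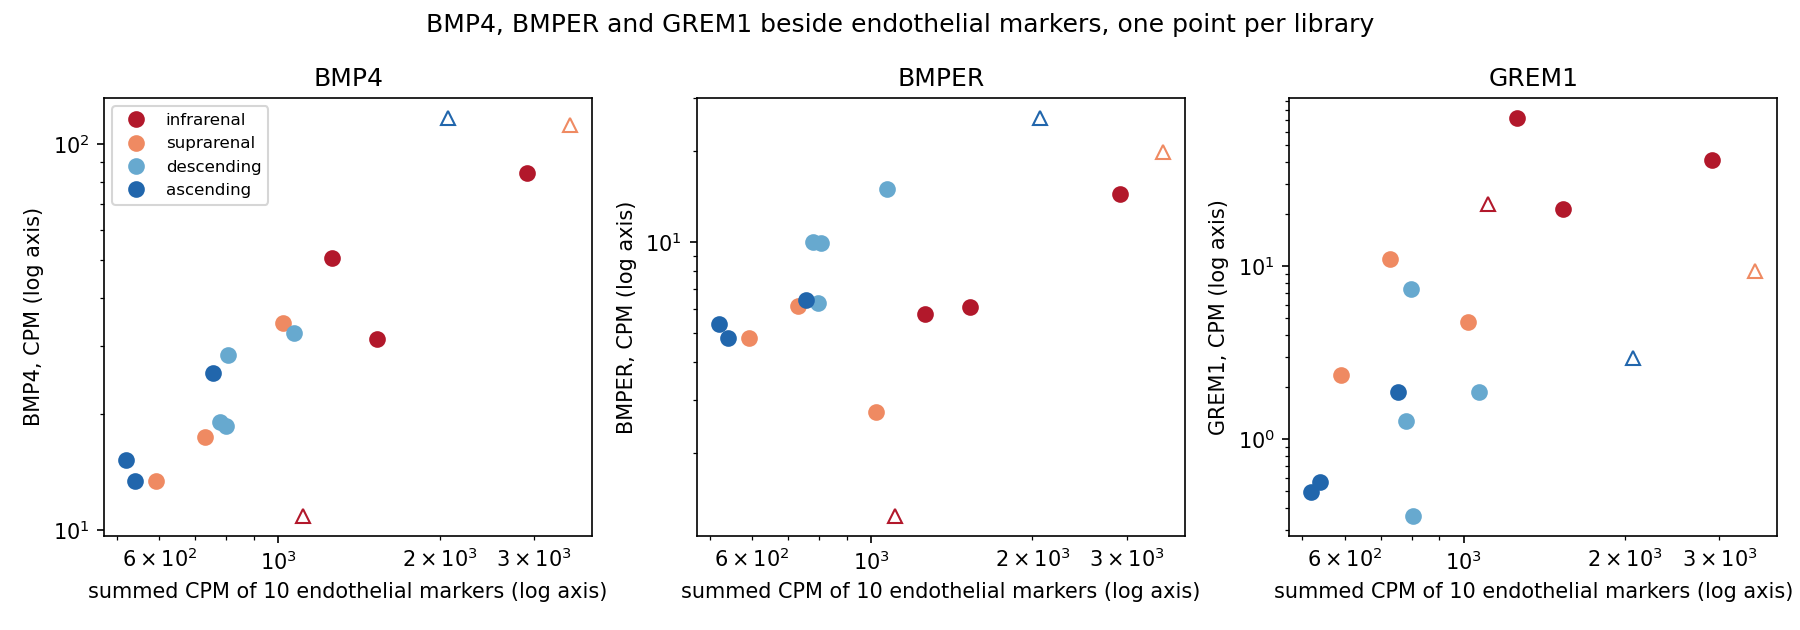
BMP4, BMPER and GREM1 (CPM, log axis) against the summed CPM of 10 endothelial markers (log axis), 1 point per library, coloured by region, with open triangles for the 3 libraries that stood apart. The 3 libraries with 2070 CPM or more of endothelial markers hold the 3 highest BMP4 values, 84.3, 112 and 117 CPM. In the infrarenal, suprarenal and ascending library among these, GREM1 was 41.0, 9.40 and 2.96 CPM. The ranges of those regions were 21.5 to 72.0, 2.35 to 11.0 and 0.494 to 2.96 CPM.

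BMP5 (GeneID 101866122), a ligand of skeletal and lung development, was near the limit of detection. Its counts summed to 33 over the infrarenal libraries, 104 over the suprarenal, 11 over the descending and 31 over the ascending libraries. Of the suprarenal counts, 87 came from replicate 3, where the level was 5.52 CPM against 0.0591 to 0.574 CPM in the other suprarenal libraries. At these counts the ranges of all regions overlapped. The infrarenal difference was 0.00 (SE 0.55), and 0.59 without the 3 libraries that stood apart.

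Among the receptors, BMPR1A and BMPR2 had regional means within their spread, and BMPR1B had a gradient. BMPR1A (GeneID 102122481), a broadly expressed type I receptor, had 69.9, 144, 149 and 155 CPM in the infrarenal libraries and 132, 126, 58.5 and 147 CPM in the suprarenal libraries. The descending libraries had 113, 136, 170 and 138 CPM and the ascending libraries 94.7, 115, 162 and 50.7 CPM. Its 3 lowest values were those of the 3 libraries that stood apart, and the ranges of all regions overlapped. The infrarenal mean was 129 ± 39.9 CPM beside 116 ± 39.3 suprarenal, 139 ± 23.5 descending and 106 ± 46.2 CPM ascending (SD, n = 4 each), with an infrarenal difference of 0.12 (SE 0.32), and of 0.18 without those 3 libraries.

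BMPR2 (GeneID 102132657), the type II receptor that pairs with both type I receptors, had 207, 413, 409 and 399 CPM in the infrarenal, 340, 364, 300 and 375 CPM in the suprarenal, 266, 405, 386 and 341 CPM in the descending and 253, 333, 351 and 289 CPM in the ascending libraries. The regional means ran within a narrow band, 357 ± 100, 345 ± 33.1, 350 ± 61.8 and 306 ± 44.1 CPM (SD, n = 4 each) in that order, and the infrarenal difference was 0.06 (SE 0.18). Infrarenal replicate 1 lay far below the other infrarenal libraries. Without the 3 libraries that stood apart, BMPR2 was 405 to 418 CPM in the infrarenal region, above the 347 to 382 CPM of the suprarenal and the 255 to 356 CPM of the ascending region, a log2 difference of 0.27 from the other 3 regions. It overlapped the 269 to 408 CPM of the descending region, and the shares of tested genes with such separations are the 7.90% and 15.7% given for NOG and BMP4.

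BMPR1B (GeneID 102136230), the type I receptor best known from cartilage, digits and the ovary, showed a gradient opposite to that of GREM1. It had 7.41, 14.7, 2.23 and 4.59 CPM in the infrarenal libraries and 31.1, 15.7, 7.24 and 25.1 CPM in the suprarenal libraries. The level was 23.7, 39.6, 30.6 and 26.1 CPM in the descending libraries and 63.9, 50.6, 71.2 and 13.4 CPM in the ascending libraries. The lowest suprarenal and the lowest ascending library were the ones that stood apart, and these were the only libraries outside the infrarenal region to fall within its range. The means were 7.23 ± 5.41, 19.8 ± 10.5, 30 ± 6.99 and 49.8 ± 25.7 CPM (SD, n = 4 each) in the infrarenal, suprarenal, descending and ascending regions. Neighbouring regions in this order overlapped, and the infrarenal libraries lay entirely below the descending ones.

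The infrarenal region differed from the other 3 by -2.15 on the log2 scale (SE 0.52), and the abdominal regions, infrarenal and suprarenal, differed from the thoracic ones by -1.74 (SE 0.45). Without the 3 libraries that stood apart the infrarenal difference was -2.57, and the infrarenal libraries at 2.25 to 14.9 CPM lay below all the rest, which began at 15.9 CPM, as 3.89% of tested genes did. The 3 remaining ascending libraries, at 51.4 to 72.3 CPM, then lay above every library of the other regions, which reached 39.8 CPM at most, as 2.43% of tested genes did. Of the members, BMPR1B alone lay wholly below in the infrarenal against the descending region and GREM1 alone wholly above. In that pair 4.55% of all tested genes lay wholly above and 5.50% wholly below, again in a comparison the choice of members had used.

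**Figure D3:**
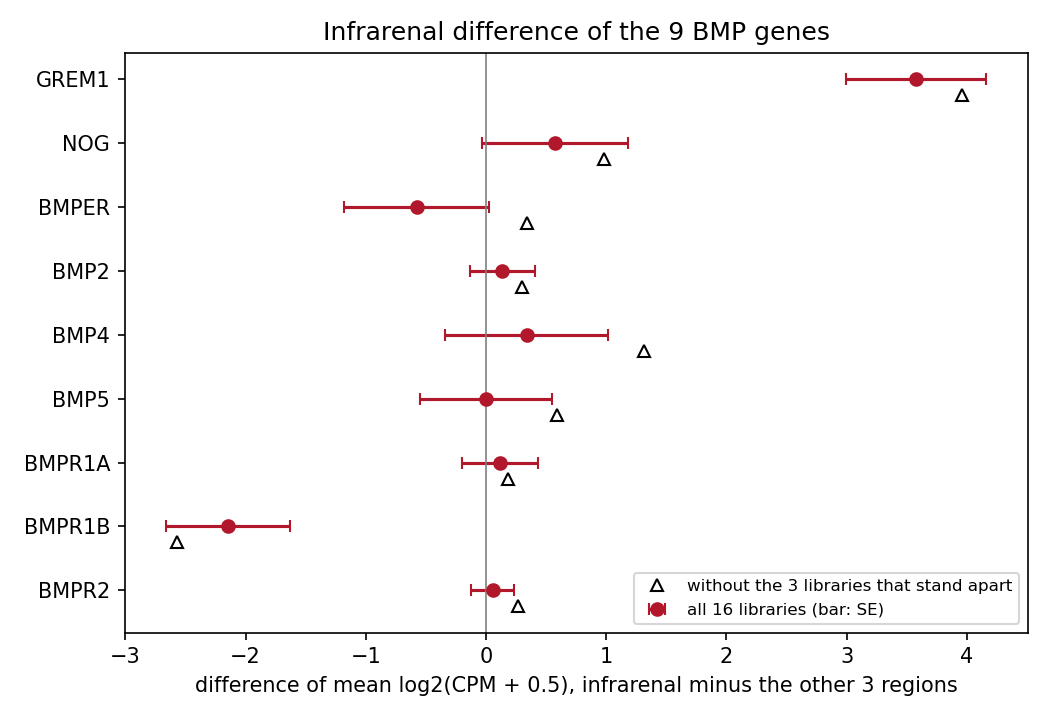
Difference of mean log2(CPM + 0.5) between the infrarenal region and the other 3 regions for the 9 BMP genes, with all 16 libraries (circles, bars show the SE) and without the 3 libraries that stood apart (open triangles). GREM1 at 3.58 and BMPR1B at -2.15 lie farthest from 0, and BMPER changes sign between the 2 sets of libraries.

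Over the 9 members the median infrarenal difference was 0.12, with 7 positive and 2 negative, beside a median of 0 over all tested genes. Without the 3 libraries that stood apart it was 0.34, with 8 positive and 1 negative, beside 0.01. For the abdominal against the thoracic regions it was 0.09, with 6 positive and 3 negative, beside 0.01 over all genes. The largest abdominal difference was that of GREM1, 2.91 (SE 0.50).

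The genes whose libraries tracked GREM1 most closely were ranked by Pearson correlation of log2(CPM + 0.5) over the 16 libraries, which share the 4 regions and their depth. They were RRAD (r = 0.90), S1PR3 (0.90), ANGPT2 (0.90), NPFFR2 (0.89) and GPR21 (0.88). S1PR3, a receptor for sphingosine 1-phosphate, averaged 201 CPM in infrarenal, 61.3 in suprarenal, 26.9 in descending and 17.2 CPM in ascending libraries. ANGPT2, the angiopoietin that modulates the TIE2 receptor, averaged 83.5, 14.8, 5.51 and 5.41 CPM in the same order. For BMPR1B the closest were ZBTB47 (r = 0.95), PON3 (0.94), ANKRD6 (0.94), EPB41L1 (0.94) and SPIN4 (0.93). ZBTB47, a zinc finger protein, averaged 194, 244, 276 and 302 CPM in that order, and PON3, a paraoxonase, 3.97, 8.79, 10.5 and 12.6 CPM.

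The rest of the pathway was tested over all genes by edgeR's quasi-likelihood method. These genes played no part in choosing the 9, but their list was drawn up with earlier results of these data known. Counts over the list are therefore not an independent test. Of 58 genes listed, 56 were in the table and 50 were tested (BMP1 and BMP8A were not analysed here), and a Benjamini-Hochberg adjusted p under 0.05 was called. Against the mean of the other 3 regions, 3 of the 50 fell in the infrarenal aorta (BMP3, RGMA and BAMBI) and 0 rose. At an unadjusted edgeR p under 0.05, 7 were higher and 6 lower, beside 2184 of all 15921 tested genes in either direction. DESeq2 called 2 higher and 5 lower, beside 357 and 495 over all genes. Limma voom called 3 in all, beside 193 higher and 203 lower over all genes. The 3 edgeR calls are 6% of the list beside 2.98% of all tested genes, of which 1.37% were higher and 1.61% lower. In the abdominal against the thoracic regions BMP3 alone was called, 2% of the list beside 2.11% of all genes, and it was also the single gene called for any difference among the regions, where 2.02% of all genes were. Without infrarenal replicate 2 there was 1 infrarenal call, without infrarenal replicate 1 there were 5, and without the 3 libraries that stood apart there were 9, of which 5 were higher and 4 lower. Calls over all genes changed as well. They were 135 higher and 132 lower, 239 higher and 310 lower, and 874 higher and 733 lower in those fits, in the same order. The list's median of 0.12 stood beside 0.03 over all tested genes. Values in parentheses with a gene of the pathway or a neighbour are edgeR log2 fold changes of the infrarenal region over the mean of the other 3.

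BMP3, a ligand that opposes other BMPs in bone, fell furthest. It had 0.772, 1.39, 2.56 and 1.42 CPM in the infrarenal libraries and 14.7, 5.12, 7.81 and 4.49 CPM in the suprarenal libraries. In the descending libraries it reached 24.7, 37.8, 55.1 and 15.7 CPM, and in the ascending libraries 9.78, 13.6, 25.9 and 2.36 CPM. All infrarenal libraries lay below the rest except for ascending replicate 4, which was lower than infrarenal replicate 3. The infrarenal log2 fold change was -3.29 (SE 0.60, edgeR adjusted p = 0.00531), and the abdominal against thoracic one was -2.56 (SE 0.44, edgeR adjusted p = 0.00500). The edgeR adjusted p for any difference was 0.00788, and the highest mean was in the descending aorta, at 33.3 CPM. Limma voom did not call BMP3 in the infrarenal comparison, at an adjusted p of 0.073.

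The other ligands did not pass in edgeR. GDF7, a ligand of the GDF5 group, had an infrarenal mean of 49.8 CPM against 101, 137 and 104 CPM in the suprarenal, descending and ascending regions, with a log2 fold change of -1.18 (SE 0.32, edgeR adjusted p = 0.0609). DESeq2 and limma voom called it, at log2 fold changes of -1.17 and -1.22 and adjusted p of 0.00453 and 0.0402, and without the 3 libraries that stood apart the value was -0.94 (edgeR adjusted p = 0.102). BMP6, a ligand of iron regulation, averaged 63.6, 44.5, 23.9 and 51.3 CPM in that order (0.75, SE 0.52, edgeR adjusted p = 0.570). Its 3 highest libraries, infrarenal replicate 3 at 137, ascending replicate 4 at 112 and suprarenal replicate 3 at 105 CPM, were again the 3 with the highest endothelial marker sums. BMP10 and GDF2, ligands of endothelial ALK1 made mainly in heart and liver, had 0 counts in all 16 libraries.

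Of 8 other receptors and co-receptors tested, RGMA, a co-receptor of the repulsive guidance family, fell. It had a mean of 46.4 CPM in infrarenal against 60.2 in suprarenal, 78.4 in descending and 73.2 CPM in ascending libraries (-0.60, SE 0.16, edgeR adjusted p = 0.0496). The value lies at the threshold, and 13 of the 16 fits that left out 1 library lost it, with an adjusted p between 0.00245 and 0.171 over the 24 alternatives. The type II receptor ACVR2B averaged 11.7 CPM against 7.47, 7.02 and 5.95 CPM (0.78, SE 0.23, edgeR adjusted p = 0.0948), and DESeq2 called it higher (0.80, adjusted p = 0.0242). The type I receptor ACVR1 (0.04) and the type II receptor ACVR2A (-0.03) had the smallest values. The endothelial co-receptor ENG averaged 636 CPM against 306, 200 and 439 CPM (1.09, edgeR adjusted p = 0.171), of which infrarenal replicate 1 at 1320 CPM was the highest library, and its value was 0.45 without that library.

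Of 13 other antagonists and binding proteins tested, BAMBI fell and 12 did not pass in edgeR. BAMBI, a pseudoreceptor that lacks a kinase and blocks type I receptors, had 32.4, 16.4, 20.6 and 25.6 CPM in the infrarenal libraries against 72.9, 46.6, 38.2 and 37.6 CPM in the suprarenal libraries. It had 56.6, 42.8, 83.3 and 42.9 CPM in the descending and 111, 49.3, 76.7 and 38.8 CPM in the ascending libraries, so each infrarenal library lay below all others. The log2 fold change was -1.28 (SE 0.30, edgeR adjusted p = 0.0270), and the call was lost without infrarenal replicate 2, 3 or 4, with an adjusted p up to 0.114. CRIM1, a membrane protein that tethers BMPs, had an infrarenal mean of 1110 CPM against 811, 715 and 660 CPM in the suprarenal, descending and ascending regions (0.61, SE 0.18, edgeR adjusted p = 0.0871). Sclerostin, encoded by SOST, averaged 338 CPM against 563, 824 and 629 CPM (-0.97, SE 0.31, edgeR adjusted p = 0.125), and TWSG1, which acts with chordin, 415 CPM against 342, 341 and 295 CPM (0.35, edgeR adjusted p = 0.503). DESeq2 called CRIM1 higher (0.63, adjusted p = 0.0195) and SOST lower (-0.95, adjusted p = 0.0328). CRIM1 and ACVR2B passed in the fit without infrarenal replicate 1, at edgeR adjusted p = 0.0203 and 0.00697.

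None of the 6 transducers and ubiquitin ligases passed in edgeR, DESeq2 or limma voom, and their median was 0.01. An unadjusted edgeR p under 0.05 was found for 1 of them, beside 2184 of all 15921 tested genes. SMAD9 had an infrarenal mean of 155 CPM against 139, 169 and 133 CPM (0.08), SMAD4 117 CPM against 118, 132 and 117 CPM (-0.06) and SMAD5 87.4 CPM against 88.5, 92.1 and 69.3 CPM (0.08). Their largest value was that of SMAD1, -0.38 (SE 0.17, edgeR adjusted p = 0.347). No protease of BMP precursors or chordin passed in edgeR, DESeq2 or limma voom among the 4 tested, of which 0 had an unadjusted edgeR p under 0.05, FURIN (-0.10), PCSK6 (-0.72), TLL1 (0.48) and TLL2 (0.79).

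The 11 target genes all had positive infrarenal values with a median of 0.70, and 0 passed in that comparison in edgeR, DESeq2 or limma voom. An unadjusted edgeR p under 0.05 was found for 4 of the 11, beside 2184 of all 15921 tested genes. For any difference among the regions, DESeq2 called MSX1, RUNX2 and MSX2, at adjusted p of 0.00787, 0.0134 and 0.0439. The median depended on 1 library. ID1, a direct SMAD target, had 844 CPM in infrarenal replicate 1 and 156, 193 and 155 CPM in the other infrarenal libraries, against 121 to 265 CPM in the suprarenal, 91.0 to 209 in the descending and 75.5 to 284 CPM in the ascending libraries. ID3 likewise had 1320 CPM there and 384, 338 and 319 CPM in the other infrarenal libraries. ID2 had a log2 fold change of 0.15, and -0.41 without that library. Without infrarenal replicate 1 the median of the 11 was 0.15, 9 positive and 2 negative, and ID1 had a value of -0.04. When counts were scaled by library totals alone, 10 were positive and 1 negative, with a median of 0.60.

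**Figure D4:**
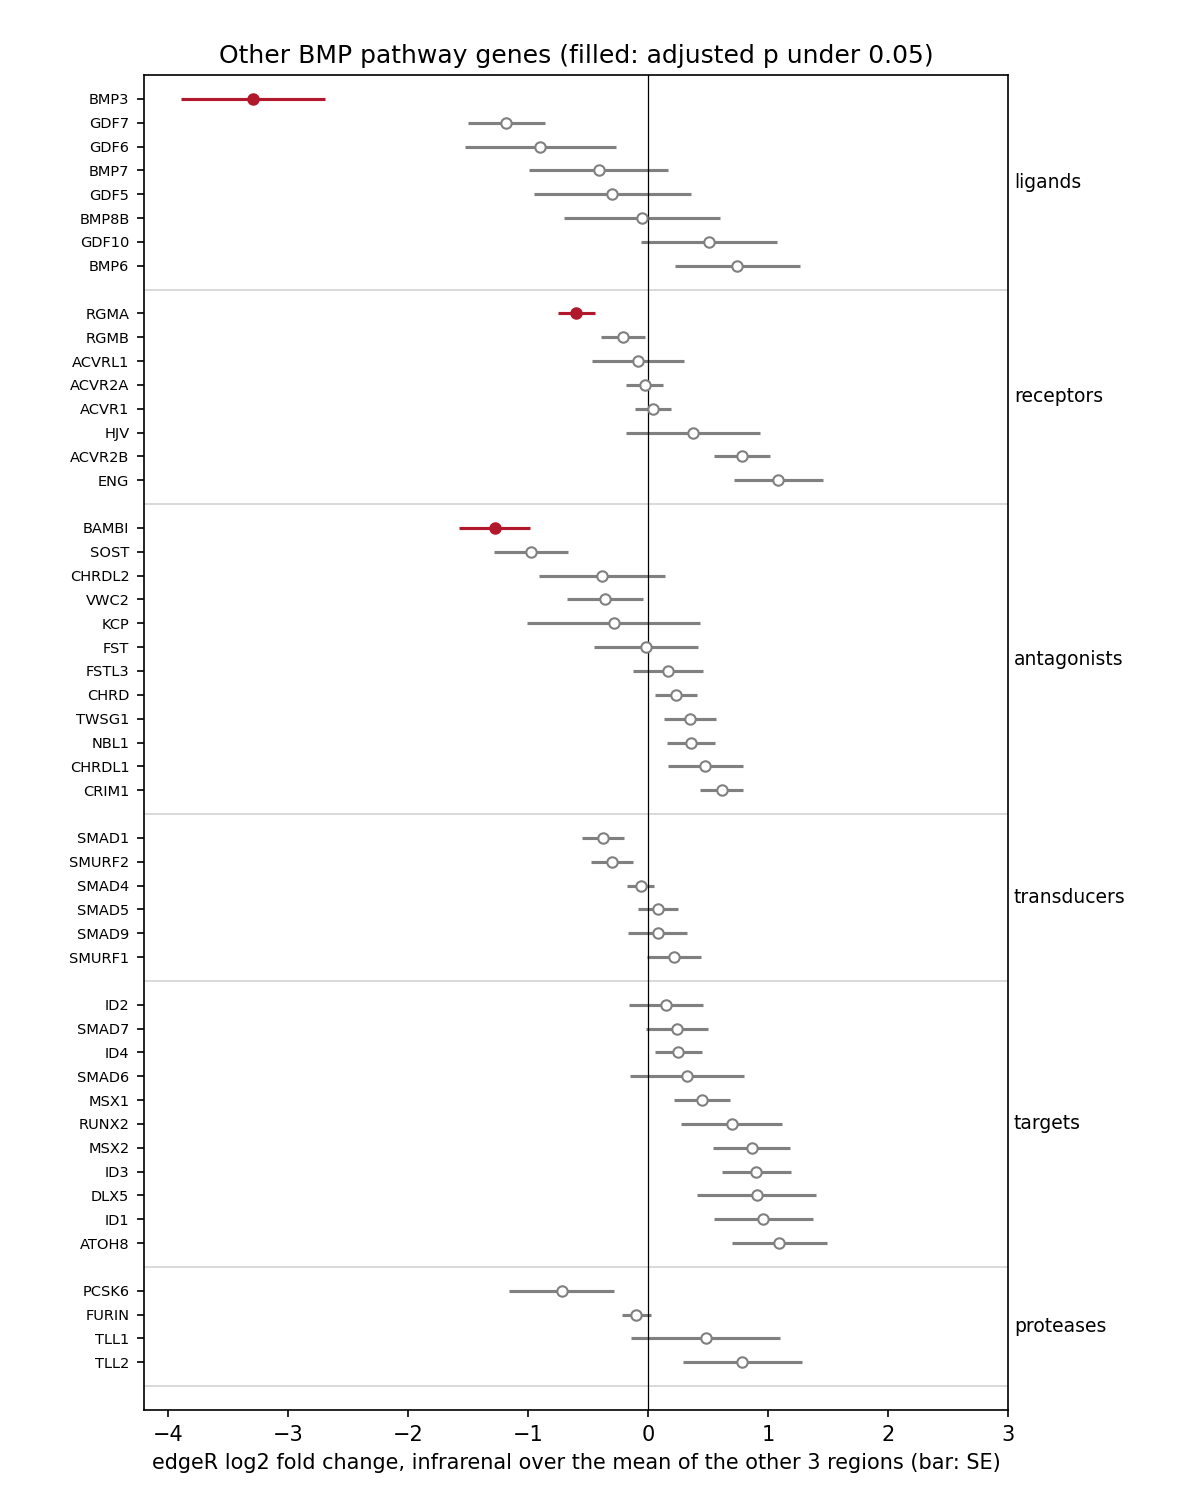
edgeR log2 fold change of other BMP pathway genes in the infrarenal region over the mean of the other 3 regions, grouped by role, with bars for the SE. The 3 filled points, BMP3 at -3.29, BAMBI at -1.28 and RGMA at -0.60, have an adjusted p under 0.05; the 11 targets lie right of 0 with all libraries.

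**Figure D5:**
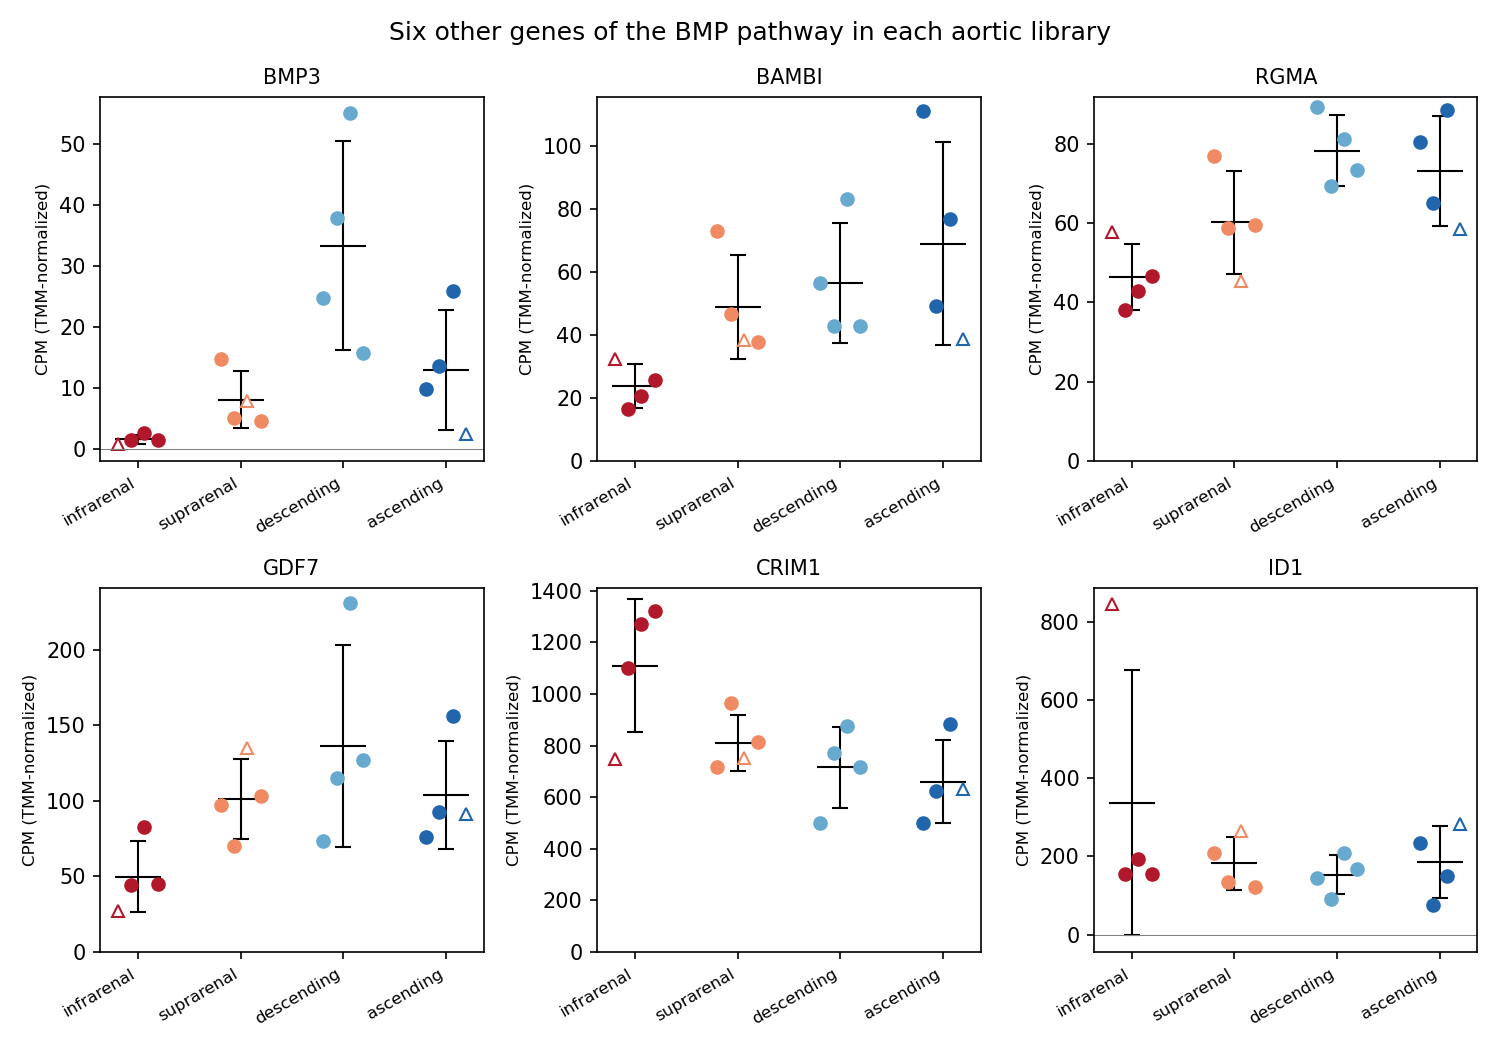
TMM-normalized CPM of 6 other pathway genes in each library (points), with the mean (line) and SD (bars) of each region of 4 libraries and open triangles for the 3 libraries that stood apart. BMP3 lies at 0.772 to 2.56 CPM in the infrarenal region, and ID1 is high in infrarenal replicate 1 at 844 CPM.

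The nearest protein-coding genes on each side of the members in the RefSeq gene order were also tested. Of 18 such neighbours, 14 were in the table and 9 were tested, and 3 were called in the infrarenal comparison, beside 2.98% of all genes. COL21A1, a collagen gene next to BMP5, had a mean of 17.3 CPM in infrarenal against 52.0 in suprarenal, 50.8 in descending and 104 CPM in ascending libraries (-1.91, SE 0.29, edgeR adjusted p = 0.00159). SNCG, which encodes gamma-synuclein and lies beside BMPR1A, averaged 64.5 CPM against 20.2, 10.9 and 13.8 CPM (2.15, SE 0.51, edgeR adjusted p = 0.0302). FAM117B, beside BMPR2, averaged 16.5 CPM against 24.8, 31.1 and 27.4 CPM (-0.74, SE 0.19, edgeR adjusted p = 0.0491). With 1 library left out, SNCG lost its call in 7 of 16 fits (edgeR adjusted p = 0.301 without infrarenal replicate 1) and FAM117B in 13, and COL21A1 lost it in 0. In limma voom SNCG and FAM117B did not pass, at adjusted p of 0.0610 and 0.0752.

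The tested neighbour of GREM1 was not called. FMN1, the formin gene beside it, had an infrarenal mean of 1.87 CPM against 2.70, 3.45 and 2.33 CPM in the suprarenal, descending and ascending regions (-0.57, SE 0.40, edgeR adjusted p = 0.571). SCG5, on the other side, was too scarce to test, at 77 counts over 16 libraries. UNC5C, beside BMPR1B, averaged 2.20 CPM against 1.55, 1.19 and 2.91 CPM (0.34, SE 0.60, edgeR adjusted p = 0.878). BBS9 beside BMPER (0.04), DDHD1 beside BMP4 (-0.09), NOP58 beside BMPR2 (0.12) and LDB3 beside BMPR1A (0.76, edgeR adjusted p = 0.0756) did not pass. HAO1 and FERMT1 beside BMP2 and HMGCLL1 beside BMP5 had 3, 17 and 67 counts in all and were not tested.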

How the data were processed

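Per the submitters' processing notes, the authors used, in an order not stated, featureCounts (1.5.0-p3), HISAT2 (2.0.5) and fastp. They deposited unnormalized counts, 1 row for each NCBI GeneID. Genome build, annotation and strand setting were not given in the sources used here, so reads of overlapping antisense genes cannot be told apart. The series table held the same values as the 16 library files, and no 2 libraries of the same region repeated one another (24 pairs, lowest chi-square per degree of freedom 28.2). Symbols came from the RefSeq gene table of assembly T2T-MFA8v1.1 and matched 24609 of 32822 GeneIDs; it gave names and gene order, no coordinates. The 24 rows with mitochondrial names, 0.0295% to 0.118% of a library's counts, were left out.

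Genes were kept with filterByExpr (count 10, total 15), scaled with TMM and fitted in edgeR 4.0.16 (R 4.3.3) with a mean per region. Member differences are of mean log2(CPM + 0.5), with an SE from the pooled variance within regions. The members and all lists were chosen with earlier results of these data known. All members were named, as were pathway genes called or among the 3 of highest mean in their role, tested neighbours and the 5 genes most like GREM1 and BMPR1B; other named genes were chosen after their values were seen. Marker lists covered endothelial, smooth muscle, fibroblast, white adipocyte, mesothelial, macrophage and cardiac muscle cells. On simulated counts the infrarenal test recovered 32.4% of the 102 genes given a 2-fold change and 94.9% of the 98 given a 4-fold one. Of its 133 calls, 7 were false. The simulation gave all genes the same dispersion, 0.146, and held no library that stood apart, so recovery in the real libraries can differ. Alternatives were RLE factors, library totals, 2 other filters, DESeq2 1.42.0, limma 3.58.1 voom, a replicate block, 2 other prior counts, each library left out, and, added after seeing the data, 3 libraries left out together. A gene counted among the pathway genes is not reported here.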

Additional observations from a re-analysis of the deposited data

Results flagged for a closer look

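In 36 sets of 4 libraries, 1 for each of the 9 genes in each region, 10 held a library far from the other 3. The limit was the 95% one of Dixon's test, where chance gives about 1 in 20 for normal values and independent sets. These sets are not independent, since the 9 genes share the same 16 libraries. NOG was high in infrarenal replicate 3, at 8.72 CPM against 1.70 to 2.35 CPM in the other infrarenal libraries, and in descending replicate 3, at 8.56 CPM against 0.856 to 1.72 CPM. BMP2 was high in infrarenal replicate 4, at 29.0 CPM against 12 to 13.1 CPM, in suprarenal replicate 3, at 20.1 CPM against 9.69 to 11.5 CPM, and in ascending replicate 3, at 24.0 CPM against 15.2 to 16.4 CPM.

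Ascending replicate 4 was high for BMPER, at 25.8 CPM against 4.83 to 6.42 CPM, and for BMP4, at 117 CPM against 13.4 to 25.6 CPM. Suprarenal replicate 3 was high for BMP5, at 5.52 CPM against 0.0591 to 0.574 CPM. Infrarenal replicate 1 was low for BMPR1A, at 69.9 CPM against 144 to 155 CPM, and for BMPR2, at 207 CPM against 399 to 413 CPM. GREM1 and BMPR1B had no such library in any region.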

How the results depend on the processing

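All 396 alternative values of the member differences moved by less than the spread between replicates, a wide limit that also let signs change. With 1 library left out the infrarenal difference of GREM1 ran from 3.23 to 3.81 and that of BMPR1B from -2.56 to -1.73. That of BMP2 ran from -0.16 to 0.25 and that of BMP4 from -0.08 to 0.88. Without the 3 libraries that stood apart, BMPER went from -0.58 to 0.34. Calls of the rest of the pathway, against 1 for any difference, 3 for the infrarenal and 1 for the abdominal comparison, also depended on the processing, and the cause was not tested. With library totals alone they were 3 for any difference and 3 for the abdominal comparison, and with a filter of 1 CPM in 4 libraries 2 for the abdominal one. DESeq2 called 8, 7 and 3 pathway genes, and over all genes 825, 852 and 650 against 322, 474 and 336. Voom called 2 pathway genes in the abdominal comparison and 1 neighbour against 3. Without infrarenal replicate 1, suprarenal replicate 3 and ascending replicate 4 together, an alternative chosen after seeing the data, 10, 9 and 7 pathway genes were called, and 1130, 1607 and 920 of all genes. Of those 9, 5 were higher (BMP6, ACVR2B, CRIM1, SMAD5 and TLL1) and 4 lower (BMP3, RGMA, SOST and BAMBI), and of the 1607, 874 were higher and 733 lower, against 218 and 256.

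With 1 library left out, pathway calls ran from 1 to 2 for any difference, 1 (without infrarenal replicate 2) to 5 (without infrarenal replicate 1) for the infrarenal and 1 to 4 for the abdominal comparison. Calls over all genes ran from 213 to 477, 267 to 568 and 214 to 497, and neighbour calls from 1 to 4. Over the 24 alternatives, infrarenal calls of named genes were lost 46 times, counting each gene in each alternative. FAM117B lost its call in 17, RGMA in 15, SNCG in 10 and BAMBI in 3. BMP3 lost it in 1, voom, at an adjusted p of 0.073. With the replicate block, pathway calls were 4, 7 and 5, and calls over all genes 532 for any difference and 547 for the abdominal comparison. Over all genes the block called 278 higher and 402 lower in the infrarenal comparison, against 218 and 256 without it. In the infrarenal comparison the block also called GDF7 (-1.23, edgeR adjusted p = 0.00101), ATOH8 (1.33, 0.0205), CRIM1 (0.60, 0.0194) and ACVR2B (0.76, 0.0442), and lost SNCG and FAM117B at 0.0882 and 0.0632. The labels do not say whether a replicate number marks 1 animal. Of 24 pairs with the same number, 19 deviated together with a correlation over 0.1, the lowest being -0.235, with a mean of 0.295 beside -0.093 for unlike numbers, and 15 of 16 libraries correlated best with their own number, a hint from the data and not the design. Depth limits BMP5, at 11 to 104 counts a region.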

Other observations

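Values that the regional comparisons leave aside concern the libraries that members shared. The genes whose levels tracked BMP4 most closely over the 16 libraries were PKN3 (Pearson r = 0.94), L1CAM (0.94) and TRPM6 (0.94). PKN3 averaged 28.3 CPM in infrarenal, 26.1 in suprarenal, 11.9 in descending and 18.1 CPM in ascending libraries. Those closest to BMPER were CLIC2 (0.93), FAM89A (0.92) and GRIK3 (0.92), and those closest to BMP5 were ADRA2B (0.93), IL12RB2 (0.90) and PROX1 (0.90), the last a transcription factor of lymphatic endothelium. For NOG the closest were SH3BP4 (0.86), UTP25 (0.84) and ANO2 (0.84), followed by NOS3 (0.83), the endothelial nitric oxide synthase. NOS3 averaged 97.0 CPM in infrarenal, 75.8 in suprarenal, 51.6 in descending and 39.1 CPM in ascending libraries. BMPR1A tracked ADARB1 (0.968) and USP9X (0.965), and BMPR2 tracked HDGFL3 (0.945) and OTUD4 (0.937). These correlations describe 16 libraries that share regions and depth, and the genes were picked after their values were seen.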
